A study of Brassica oleracea var. capitata with 6 samples.

Results

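The loci described here are transcribed regions that the assembly of the cabbage leaf reads placed outside the annotated genes, and whose locus number in the deposited gene table is 35000 or above. They carry names of the form Kohlrabi_newGene_41112 and are called by their number below (locus 41112). One further locus above the limit was set aside by the rule and is in no count of this set. The rule used the number alone and no expression value, but it was chosen with earlier results of these data known. It took 875 of the 31497 rows of the table, with numbers from 35009 to 42476. The table holds 4473 new loci in all, of which 3597 have a lower number, and 27024 annotated genes. Locus number was taken as genome order. The sources used here give neither a position nor a sequence for these loci, so this order was not tested, and no chromosome can be named for any of them.

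The RNA came from leaves of cabbage (*Brassica oleracea* var. *capitata*) collected at the harvesting stage, from 3 biological replicates of wild-type plants and 3 of *nwgl* plants. *nwgl* stands for non-wax glossy, a phenotype with little leaf wax that the study mapped as a dominant locus to the end of chromosome C08, and its *nwgl* plants go back to the inbred line G287. The allele itself is not identified in the labels, and the line of the wild-type plants is not given in the sources used here. A difference in line background therefore cannot be told apart from the *nwgl* genotype in any comparison below. Tissue and stage were shared by all 6 libraries. With whole leaves, fewer cells of a kind and less RNA per cell cannot be told apart in any difference below. The IDs of the table are not paired with gene names, so no list of leaf cell markers could be checked.

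Cuticular wax consists of long fatty acids, alkanes, alcohols and related lipids that epidermal cells make and export to the leaf surface. A new locus is defined by reads alone. It can be an unannotated protein-coding gene, a non-coding RNA, a piece of a transposable element or an unjoined end of a known gene, and nothing in the table tells these apart. An assembly made over all libraries lists a locus as soon as 1 library carries it, so such a catalogue holds many loci near the detection limit. Expression was measured in FPKM, a fragment count divided by transcript length and by the mapped fragments of the library.

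The libraries were estimated to be of similar depth. From the worth of 1 fragment among low values, their depth relative to wild-type replicate 2 lay between 0.953 and 1.09, each estimate resting on only 5 to 14 genes. Wild-type replicate 3 nevertheless listed the fewest annotated genes above 0, 78.9%, against 83.5% to 89.4% in the others. The genotype labels were checked on *Bol018504*, the CER1 homolog that the study followed in the mapped interval. Its FPKM was 114, 142 and 44.0 in wild-type and 5.20, 5.09 and 5.97 in *nwgl*, so that all wild-type libraries were above all *nwgl* libraries. The study reported this fall from the same libraries. The check therefore shows only that the columns carry the labels as the study used them, and is no independent evidence of genotype.

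Of the 875 loci, 657 had a mean of at least 0.1 FPKM and were tested. The remaining 218 were too low, the highest of them with a mean of 0.0979 FPKM. Differential expression was tested with limma on log2(FPKM + 0.1) over all 24332 rows with such a mean, and a call needed both an adjusted p (Benjamini-Hochberg) below 0.05 and a change of 1 or more on the log2 scale. By this rule 78 loci were called, of which 58 were higher and 20 were lower in *nwgl* leaves. They were 11.9% of the tested loci of the set, against a background of 4.89% of all rows tested, 4.92% of the new loci of lower number (136 of 2765) and 4.66% of the annotated genes (975 of 20909). Calls higher in *nwgl* made up 8.83% of the set against 3.69% of all rows, and calls lower in *nwgl* made up 3.04% against 1.2% of all rows. For the new loci of lower number these shares were 3.04% and 1.88%, and for annotated genes 3.61% and 1.05%. With the set-aside locus left out of both, the set held 19.2% of the tested new loci and 36.4% of the 214 called ones. These shares are descriptions, and the difference between them was not tested. Called loci depend on single libraries as well. Of the 78, 42 (30 higher and 12 lower) were called with each of the 6 libraries left out in turn, and 7 (5 and 2) in none of these fits. The number of the 78 that were still called was lowest without *nwgl* replicate 1, at 43, and without *nwgl* replicate 2, at 45. The share of the set called was then 6.55% and 6.94%, and that of the new loci of lower number 1.90% and 2.51%. It was 51 without wild-type replicate 1, 51 without wild-type replicate 2, 56 without wild-type replicate 3 and 63 without *nwgl* replicate 3.

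With the calls included, 191 tested loci (29.1%) had genotypes that did not overlap. In these, every library of one genotype lay above every library of the other. The share was 20.3% of all rows and 20.4% of the new loci of lower number. In 117 of the 191 *nwgl* was higher and in 74 lower. All 78 called loci were among them, so this share is not separate from the calls, and 113 were not called. An unadjusted p under 0.05 from limma was reached by 185 loci (28.2%), again with all calls included, against 16.2% of all rows tested. Most of the set did not move in one direction. The median log2 fold change was 0.04, with quartiles of -0.56 and 0.81, and the median over all rows tested was -0.04. For the new loci of lower number the median was -0.06 and the quartiles were -0.55 and 0.53.

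The called loci were spread unevenly along the numbering. In bins of 500 numbers, 14 of the 15 bins of the set held at least 1 called locus, and 9 had at least 10% of their tested loci called. Among the 70 bins of lower number, 56 held a call and 5 reached 10%. The median share per bin was 10% in the set and 4.55% below it. Calls higher in *nwgl* outnumbered lower ones in 12 bins of the set and the reverse was found in 0, whereas below the limit 31 bins had more higher and 18 had more lower calls. Of the calls in the set, 74.4% were higher in *nwgl*, close to the 75.4% of all rows. The share was 77.4% among annotated genes and 61.8% among new loci of lower number.

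**Figure D1:**
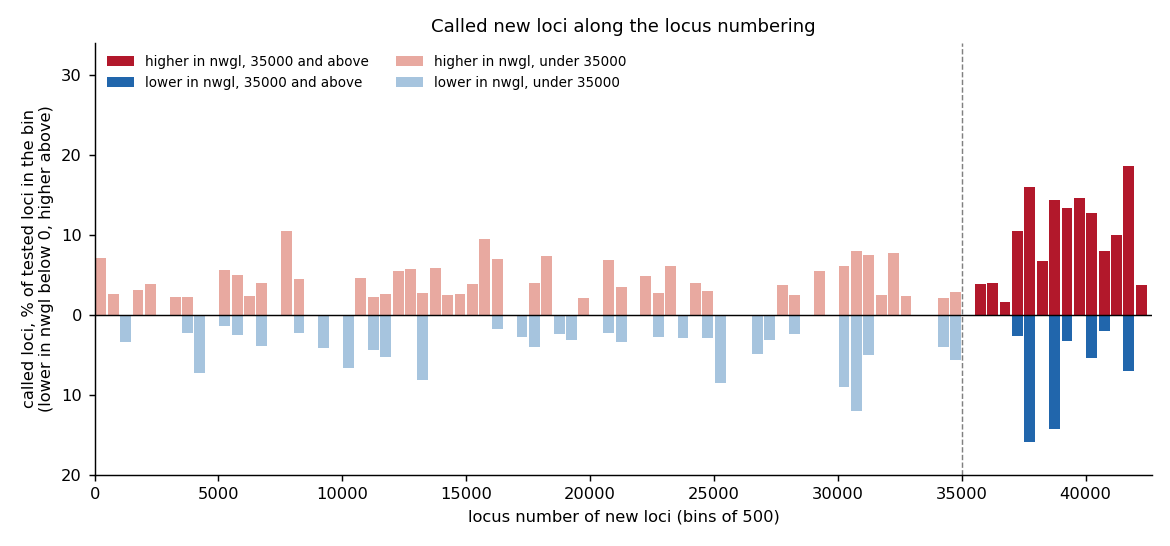
Share of tested new loci called in each bin of 500 locus numbers, in % of the loci tested in the bin, with calls higher in nwgl drawn above 0 and calls lower in nwgl drawn below 0. Dark bars are loci numbered 35000 and above, pale bars are loci of lower number, and the dashed line marks 35000; bars from 37000 up to 42000 and the 3 bins from 30000 stand higher than most others.

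The first 4 bins, from 35000 up to 37000, were close to the background. The bin from 35000 held 0 called loci of 29 tested with limma, of which 3 had an unadjusted p under 0.05. Together these 4 bins had 5 calls among 194 tested loci (2.58%), all higher in *nwgl*. In 4 of their loci wild-type was at 0 and every *nwgl* library above 0, and 2 showed the reverse. From 37000 the shares rose. The bin from 37500 had the most calls, 14 of 44 (31.8%), with 7 higher and 7 lower in *nwgl*. The bin from 38500 had 8 of 28 (28.6%), with 4 in each direction, and the bin from 41500 had 11 of 43 (25.6%), 8 of them higher. In the bin from 40000, 10 of 55 loci were called (18.2%). All calls were higher in *nwgl* in the bins from 39500 (6 of 41, 14.6%), 41000 (5 of 50, 10%) and 38000 (2 of 30, 6.67%). The last bin, from 42000, was again close to the background, with 2 of 54 (3.70%).

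The 10 bins from 37000 up to 42000 therefore held 71 of the 78 calls. There 17.4% of 409 tested loci were called, 51 higher and 20 lower, and the genotypes did not overlap in 37.9%. All 20 calls lower in *nwgl* lay in this stretch. Its edges were chosen after the bins had been seen, so the share is a description of where the calls lie and no test was made of it. It was 9.65% without *nwgl* replicate 1, 10% without *nwgl* replicate 2, 11.3% without wild-type replicate 1 and 11.2% with a pseudocount of 1. A shorter stretch of lower number had a share of calls of like size, but its calls were not mostly higher in *nwgl*. Its edges were also chosen after the bins had been seen, so its contrast with the rest is a description as well. The 3 bins from 30000 had 20 calls among 123 tested loci (16.3%), with 9 higher and 11 lower in *nwgl*, and non-overlapping genotypes in 43.1%. The rest of the new loci of lower number had 116 calls of 2642 (4.39%), with no overlap in 19.4%. The loci on either side of the limit are given without a test. Just under it, locus 34938 had 0.433, 1.43 and 0.656 FPKM in wild-type and 0 in all of *nwgl*, and locus 34950 had 0, 0.394 and 0.336 FPKM in wild-type and 2.97, 3.18 and 1.59 FPKM in *nwgl*. Just above it, locus 35009 had 4.11, 5.37 and 3.14 FPKM in wild-type and 5.72, 5.30 and 4.98 FPKM in *nwgl*. The next, locus 35019, had 1.28, 0.551 and 0.427 FPKM in wild-type and 0.544, 0.329 and 0.683 FPKM in *nwgl*.

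Most called loci were close to off in one genotype. Among the 58 called higher in *nwgl*, 17 had a listed 0 throughout wild-type, 18 more stayed under 0.1 FPKM in all of them, and 20 reached 0.1 but not 1 FPKM. Only 3 (5.17%) reached 1 FPKM in a wild-type library, against 23 of 84 (27.4%) among the called new loci of lower number and 261 of 755 (34.6%) among annotated genes. A listed 0 throughout wild-type held for 29.3% of the 58, against 14.3% of the 84 and 10.5% of the 755. Under 0.1 FPKM but not all at 0 were 31.0%, 23.8% and 18.8%. Among the 20 called lower, 7 had a listed 0 throughout *nwgl*, 5 stayed under 0.1 FPKM, 5 reached 0.1 but not 1 FPKM, and 3 (15%) reached 1 FPKM. The corresponding numbers were 4 of 52 (7.69%) for new loci of lower number and 91 of 220 (41.4%) for annotated genes. A listed 0 throughout *nwgl* held for 35% of the 20, against 42.3% of the 52 and 8.18% of the 220. Under 0.1 FPKM but not all at 0 were 25%, 17.3% and 11.8%. Among the falls, a listed 0 was thus no more frequent in the set than in the new loci of lower number. Where the lower genotype was above 0 in at least 1 library, changes on the log2(FPKM + 0.1) scale ran from 1.75 to 5.62 in the 41 loci called higher (median 3.41) and from -6.08 to -1.47 in the 13 called lower (median -3.15). For loci near 0 these values depend on the pseudocount of 0.1.

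**Figure D2:**
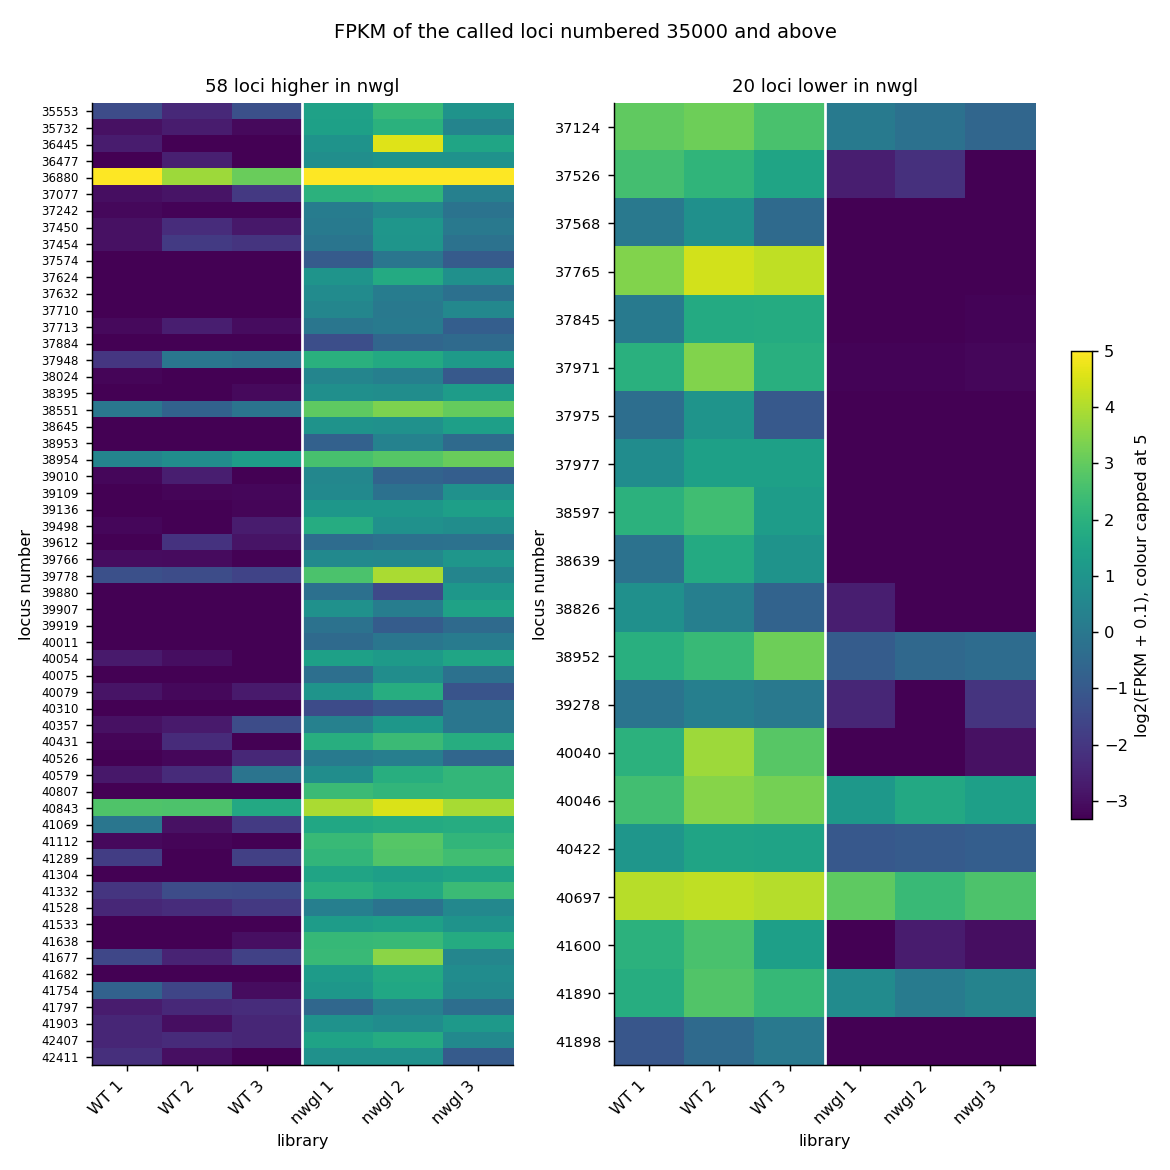
Expression of the 58 loci called higher (left) and the 20 called lower (right) in nwgl, one row per locus in order of its number and one column per library, coloured by log2(FPKM + 0.1) with the colour capped at 5. The darkest cells are libraries at or near 0 FPKM, and for most rows they fill the 3 columns of one genotype.

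Listed at 0 throughout one genotype and above 0 throughout the other were 62 of the 875 loci (7.09%). Of these, 39 (4.46%) were found in *nwgl* only, against 1.17% of all rows listed, 1.67% of the new loci of lower number (60 of 3597) and 1% of annotated genes. The other 23 (2.63%) were found in wild-type only, against 0.584% of all rows, 1.58% of the new loci of lower number (57) and 0.385% of annotated genes. Of the 39, 35 were numbered 37000 or above, and of the 23, 21 were, but most listed loci of the set also lie there. As a share of listed loci, both kinds together made up 9.93% of the 544 from 37000 up to 42000. They made up 2.33% of the 258 from 35000 up to 37000 and 2.74% of the 73 from 42000. Below the limit, such loci made up 7.41% of the 162 listed in the 3 bins from 30000, and 3.06% of the other 3435. A raised share was thus not particular to the stretch from 37000. The levels were low. Where they were on, the mean was 0.0616 to 4.60 FPKM (median 0.316) in the 39 loci and 0.102 to 16.8 FPKM (median 0.380) in the 23 loci. Only 7 of the 39 and 3 of the 23 had at least 1 FPKM in every library of that genotype, and 24 of the 62 (38.7%) were called, against 155 of 554 such rows in the whole table (28.0%) and 34 of 117 among the new loci of lower number (29.1%). A listed 0 shows that no expression was estimated, not that the locus is silent or missing.

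**Figure D3:**
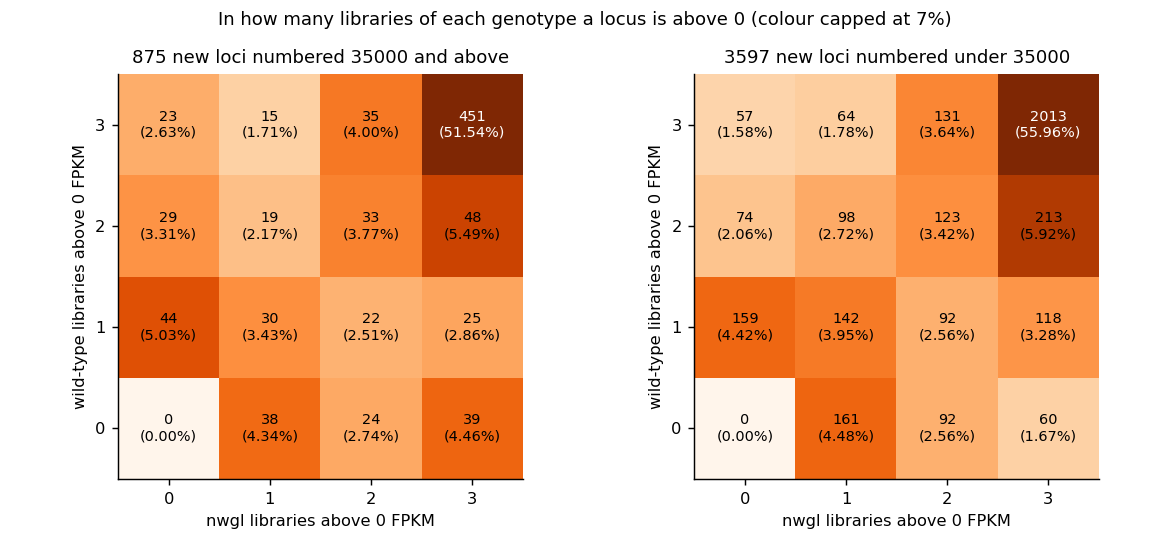
Number and share of loci by how many of the 3 wild-type libraries (vertical axis) and of the 3 nwgl libraries (horizontal axis) were above 0 FPKM, for the 875 loci numbered 35000 and above (left) and the 3597 of lower number (right), with the colour capped at 7%. The lower right corner (39 loci, 4.46%) and the upper left corner (23 loci, 2.63%) are the loci found in one genotype only; on the right these corners hold 1.67% and 1.58%.

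Many loci were also at 0 in some libraries of both genotypes or of one. In all, 424 loci were at 0 in at least 1 library, and 451 (51.5%) were above 0 in all 6, against 56.0% of the new loci of lower number and 72.4% of annotated genes. Loci above 0 in a single wild-type library and in no *nwgl* library numbered 44 (5.03%), and those above 0 in a single *nwgl* library and in no wild-type library numbered 38 (4.34%). These shares were close to the 4.42% and 4.48% of the new loci of lower number, and annotated genes had 6.51% and 3.37%. Wild-type replicate 3 listed the fewest of the set above 0, 611, while the other 5 libraries listed between 668 and 683.

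Among the loci at 0 throughout wild-type, the 5 called ones with the highest mean were all numbered 37624 or above. Locus 40807 had 4.98, 4.39 and 4.43 FPKM in the *nwgl* replicates (adjusted p = 0.000369 from limma). The 3 values lay close together, and this was the highest mean of any locus of the set found in *nwgl* only. Locus 41304 had 2.79, 2.51 and 2.76 FPKM (adjusted p = 0.000746), and locus 41533 had 2.35, 2.53 and 1.85 FPKM (adjusted p = 0.00108). Locus 41682, with 2.25, 3.21 and 1.56 FPKM, and locus 37624, with 1.89, 3.27 and 1.73 FPKM, were highest in *nwgl* replicate 2 and had an adjusted p of 0.00135 each. These 5 were called with every library left out in turn.

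Of the loci at 0 throughout *nwgl*, locus 37765 was the most abundant, at 10.7, 21.7 and 18.1 FPKM across wild-type. It had the smallest adjusted p of the set (0.000147 from limma). Locus 38597 followed with 4.01, 5.32 and 2.33 FPKM (adjusted p = 0.000746). Locus 37977 had 1.57, 2.54 and 2.55 FPKM (adjusted p = 0.00129). The last 2 named by the same rule varied more between replicates. Locus 38639 had 0.771, 3.30 and 1.82 FPKM (adjusted p = 0.00497) and locus 37568 had 0.941, 1.70 and 0.628 FPKM (adjusted p = 0.00744). All 5 were called with every library left out in turn, and all 5 lay between 37500 and 39000. No fold change is given for these loci, since one genotype was listed at 0.

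The largest rises with a value above 0 in each genotype and a mean of at least 1 FPKM were again from near 0. Locus 41112 had 0.0169, 0.00737 and 0 FPKM in wild-type and 4.75, 6.83 and 4.34 FPKM in *nwgl*. The change on the log2 scale was 5.62 (standard error 0.44, adjusted p = 0.000383 from limma), or 2.63 with a pseudocount of 1 or 8.28 with one of 0.01. Every *nwgl* library was thus far above every wild-type library, while the size of the fold rests on the pseudocount. Locus 41638 had 0, 0 and 0.0271 FPKM in wild-type against 4.71, 4.83 and 3.39 FPKM in *nwgl* (log2 fold change 5.33, standard error 0.44, adjusted p = 0.000456). Locus 40431 had 0.00736, 0.106 and 0 FPKM against 3.66, 5.05 and 3.56 FPKM (4.99, standard error 0.48, adjusted p = 0.001002). Both were at least 1 FPKM in every *nwgl* library and under 1 FPKM in every wild-type library. Locus 41289 had 0.186, 0 and 0.199 FPKM against 4.33, 6.55 and 5.33 FPKM (4.73, standard error 0.53, adjusted p = 0.00171), and locus 39136 had 0, 0 and 0.00777 FPKM against 2.002, 2.04 and 2.52 FPKM (4.47, standard error 0.45, adjusted p = 0.00114). Locus 36445 differed from these in its spread. It had 0.0561, 0 and 0 FPKM in wild-type and 1.81, 24.0 and 2.85 FPKM in *nwgl*, replicate 2 being far above the others (5.47, standard error 0.86, adjusted p = 0.00765). It was not called with a pseudocount of 1 (adjusted p = 0.0732). All 6 were called with every library left out in turn.

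Falls of like size came from a similar level. Locus 40040 had 3.996, 13.7 and 6.99 FPKM in wild-type and 0, 0 and 0.0307 FPKM in *nwgl* (log2 fold change -6.08, standard error 0.53, adjusted p = 0.000588 from limma). Locus 37971 had 3.83, 10.6 and 3.68 FPKM against 0.00533, 0.00600 and 0.0115 FPKM (-5.65, standard error 0.52, adjusted p = 0.000755). In both, wild-type replicate 2 was the highest library and the *nwgl* libraries were at or close to 0. Locus 41600 had 3.98, 6.06 and 2.52 FPKM against 0, 0.0566 and 0.0228 FPKM (-5.02, standard error 0.50, adjusted p = 0.00102). Locus 37526 had 5.63, 4.27 and 2.82 FPKM against 0.0608, 0.125 and 0 FPKM (-4.77, standard error 0.50, adjusted p = 0.00129), and locus 37845 had 0.978, 3.31 and 3.37 FPKM against 0, 0 and 0.00527 FPKM (-4.52, standard error 0.58, adjusted p = 0.00301). Locus 37124 had the highest *nwgl* values of these 6, all under 1 FPKM. It had 7.76, 8.92 and 6.07 FPKM in wild-type and 0.986, 0.768 and 0.568 FPKM in *nwgl* (-3.15, standard error 0.39, adjusted p = 0.00251), and its fold change depended less on the pseudocount, with -2.27 at 1 and -3.29 at 0.01. All 6 falls were called with every library left out in turn.

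In the bin from 37500, which had the most calls, the 5 loci with the largest changes are all among those above: 37765, 37971, 37526 and 37845 fell, and 37624 rose.

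Loci expressed in both genotypes were rare among the calls. The 6 whose lower genotype reached 1 FPKM are named here because of that count, after their values were seen. Locus 40843 had 6.37, 6.34 and 3.18 FPKM in wild-type and 15.2, 22.9 and 14.8 FPKM in *nwgl* (log2 fold change 1.75, standard error 0.42, adjusted p = 0.0454 from limma). Locus 40697 had 17.1, 18.3 and 16.6 FPKM against 7.61, 4.87 and 6.35 FPKM (-1.47, standard error 0.35, adjusted p = 0.0480). Neither was called in any of the fits that left out a library. With all libraries kept, 40843 was also lost under 4 other settings (adjusted p of 0.0521 to 0.0720) and 40697 under 5 (0.0506 to 0.0704). Locus 40046 had 5.50, 11.1 and 9.48 FPKM against 2.08, 3.19 and 2.49 FPKM (-1.67, standard error 0.40, adjusted p = 0.0486), and was called in 1 of the 6, the one without wild-type replicate 1. It was lost under 4 other settings too (adjusted p of 0.0527 to 0.0766). The genotypes did not overlap in any of these loci. The other 3 are 36880, 38954 and 41890.

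Of the 5 most abundant loci of the set, 4 were not called. Locus 39001 had 8576, 6520 and 26139 FPKM in wild-type and 7431, 7157 and 11088 FPKM in *nwgl*. It alone made up 76.1% to 93.5% of the summed FPKM of the set in a library, and 8.41% of all summed FPKM in wild-type replicate 3, against 1.49% to 2.55% in the other libraries. Its genotypes overlapped (log2 fold change -0.44, adjusted p = 0.967 from limma). Without it, the set took 0.371% to 0.597% of the summed FPKM of a library. Locus 41034 had 73.2, 126 and 169 FPKM against 67.4, 100.01 and 52.5 FPKM (-0.71, adjusted p = 0.631), and locus 36681 had 60.8, 102 and 109 FPKM against 68.4, 75.3 and 76.6 FPKM (-0.26, adjusted p = 0.894). Locus 36156 was set apart by wild-type replicate 3, with 22.7, 64.6 and 246 FPKM in wild-type against 37.2, 50.2 and 48.3 FPKM in *nwgl* (-0.67, adjusted p = 0.802). The remaining one, locus 36880, was called. It had 44.2, 13.8 and 8.47 FPKM in wild-type and 130, 93.3 and 128 FPKM in *nwgl* (2.74, standard error 0.61, adjusted p = 0.0355). Its genotypes did not overlap, but wild-type replicate 1 was well above the other wild-type libraries. With single libraries left out, the call held only without wild-type replicate 1 (log2 fold change 3.41, adjusted p = 0.0110). It was lost without each of the other libraries, with an adjusted p of up to 0.143 without *nwgl* replicate 1, and with no filter on low values (0.0904).

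By level, the share of called loci stood above that of other new loci at low and middle values, with no test of the difference. With a mean of 0.1 to 0.5 FPKM, 14 of 254 loci of the set were called (5.51%), against 29 of 1115 (2.60%) of lower number. From 0.5 to 1 FPKM the numbers were 21 of 112 (18.8%) against 23 of 440 (5.23%), and from 1 to 5 FPKM they were 38 of 219 (17.4%) against 59 of 879 (6.71%). From 5 to 20 FPKM they were 4 of 56 (7.14%) against 21 of 256 (8.20%), and from 20 FPKM upwards 1 of 16 (6.25%) against 4 of 75 (5.33%). The shares were thus apart below 5 FPKM and close together above it, where the set has few loci. The levels of both kinds of new loci were alike. The median mean FPKM was 0.407 in the set and 0.398 in the loci of lower number, against 1.90 in annotated genes, and 33.3% and 33.6% of the new loci had a mean of at least 1 FPKM, against 58.7% of annotated genes.

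**Figure D4:**
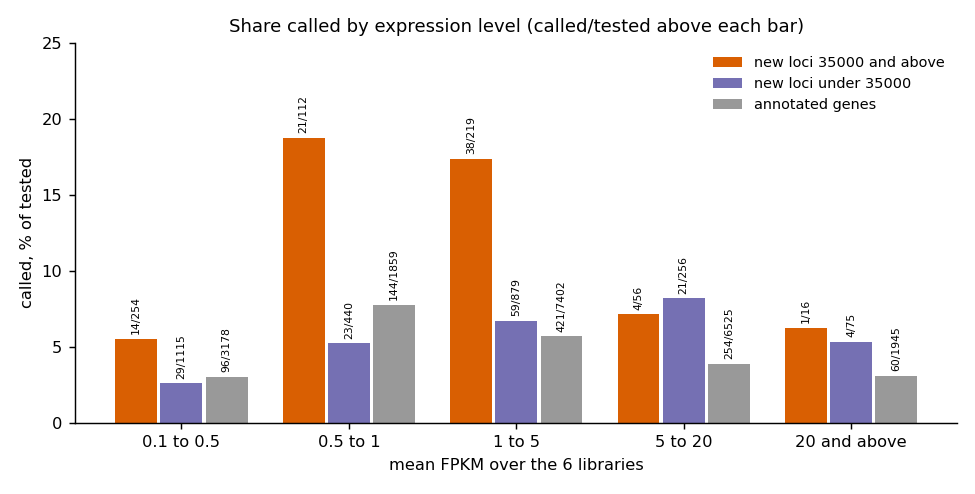
Share of tested loci or genes that were called, in %, by mean FPKM over the 6 libraries, for new loci numbered 35000 and above, new loci of lower number and annotated genes. Numbers above the bars give called over tested; between 0.5 and 5 FPKM the set lies at 17.4% and 18.8%, and the other 2 kinds lie between 5.23% and 7.75%.

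Replicates of a genotype were about as close in the set as in the other new loci. The median standard deviation within a genotype was 0.651 on the log2(FPKM + 0.1) scale in the set, 0.703 in the new loci of lower number and 0.595 in annotated genes. Across the 657 tested loci, the Pearson correlation of 2 libraries was 0.804 to 0.863 within wild-type and 0.839 to 0.889 within *nwgl*, but 0.587 to 0.694 between genotypes. Across the new loci of lower number it was 0.774 to 0.834, 0.839 to 0.881 and 0.685 to 0.756. These are correlations across loci, which are not independent replicates.

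Called loci often had called neighbours. Of the 78, 32 (41.0%) had another called locus of the set within 10 numbers, against 34 of 136 (25%) among new loci of lower number. No test was made of this, and a set with more calls has more such neighbours. Among the neighbouring pairs, 12 changed in the same direction and 6 in opposite directions, against 15 and 4 among new loci of lower number. When the tested loci were put in order of number, 42 called loci stood alone, 12 runs had 2 and 4 runs had 3. Neighbouring loci can be parts of 1 transcript, or of overlapping transcripts on opposite strands. The libraries were directional, but how the counting used strand is not given in the sources used here.

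**Figure D5:**
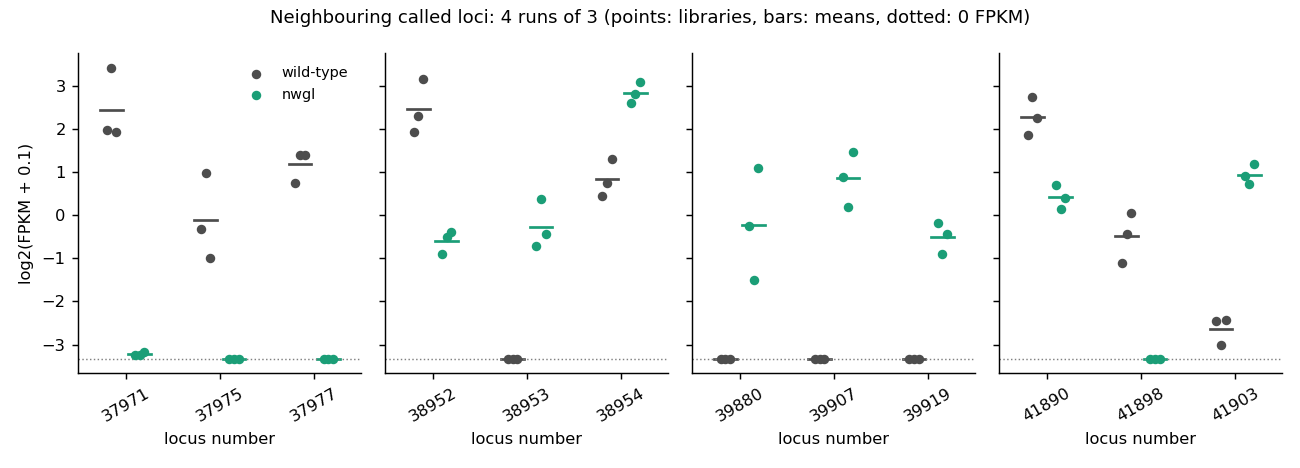
Expression of the 12 loci in the 4 runs of 3 consecutive called loci, as log2(FPKM + 0.1) on the vertical axis, with 1 point per library, bars for the mean of 3 libraries and a dotted line at 0 FPKM. One run falls throughout, one rises throughout from 0 in wild-type, and 2 hold changes in both directions.

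The run of 37971, 37975 and 37977 fell as a whole. Locus 37975, between the 2 given above, had 0.700, 1.86 and 0.406 FPKM in wild-type and 0 in every *nwgl* library (adjusted p = 0.0187 from limma). With single libraries left out, it passed only without wild-type replicate 3 and without *nwgl* replicate 3, and its adjusted p reached 0.0788 without *nwgl* replicate 1. A pseudocount of 1 ended its call as well (adjusted p = 0.0855). The run of 39880, 39907 and 39919 rose as a whole, and all 3 loci were at 0 in every wild-type library. In *nwgl*, locus 39907 had 1.75, 1.05 and 2.68 FPKM (adjusted p = 0.00257), and was called with every library left out. Locus 39919 had 0.780, 0.439 and 0.638 FPKM (adjusted p = 0.0156, and 0.107 without *nwgl* replicate 1). Its call was also lost without wild-type replicate 1, and with a pseudocount of 1, where the fitted change was under the fold threshold. Locus 39880 had 0.734, 0.255 and 2.02 FPKM (adjusted p = 0.0362), and was called only without *nwgl* replicate 2 among these fits, with an adjusted p of up to 0.137 in the others. With all libraries kept, its call was also lost with a pseudocount of 1 (adjusted p = 0.140), no filter on low values (0.0695), quantile normalization (0.0567) and the replicate number as a block (0.0501). The 3 numbers of this run are not consecutive, and no locus between them was tested.

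Both other runs held changes in both directions. Locus 38952 had 3.68, 4.79 and 8.77 FPKM in wild-type and 0.436, 0.602 and 0.663 FPKM in *nwgl* (log2 fold change -3.05, standard error 0.44, adjusted p = 0.00539 from limma), and was called with every library left out. Locus 38953 was at 0 in wild-type and had 0.505, 1.20 and 0.638 FPKM in *nwgl* (adjusted p = 0.0129). This call was lost without *nwgl* replicate 1 and without *nwgl* replicate 2 (adjusted p = 0.0676), and with a pseudocount of 1, where the fitted change was under the fold threshold. Locus 38954 rose from 1.26, 1.58 and 2.36 FPKM to 5.93, 6.86 and 8.37 FPKM (1.99, standard error 0.39, adjusted p = 0.0201), and was called in 1 of the 6 fits, the one without wild-type replicate 3. Its adjusted p was highest without *nwgl* replicate 1, at 0.0900. The 3 consecutive numbers thus held 1 fall between clear expression and a low level, 1 locus found in *nwgl* only and 1 rise between expressed levels. In the last run, locus 41890 had 3.54, 6.53 and 4.64 FPKM in wild-type and 1.53, 1.01 and 1.22 FPKM in *nwgl* (-1.86, standard error 0.40, adjusted p = 0.0308). It was called in none of the fits that left out a library, with an adjusted p of 0.0509 to 0.108, nor without a filter on low values (0.0592). Locus 41898 had 0.366, 0.639 and 0.940 FPKM in wild-type and 0 in *nwgl* (adjusted p = 0.0196), and was called only without wild-type replicate 1 and without *nwgl* replicate 3 among these fits, with an adjusted p of up to 0.0860 without *nwgl* replicate 1. With a pseudocount of 1 it was not called either (adjusted p = 0.0570). Locus 41903, the last of the run, had 0.0838, 0.0236 and 0.0857 FPKM against 1.79, 1.55 and 2.16 FPKM (3.57, standard error 0.46, adjusted p = 0.00324), and was called in all 6.

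In the study's pathway lists of changed genes, 2 loci of the set were given a pathway. These lists do not cover loci outside the study's changed genes. Locus 35732 was assigned to plant-pathogen interaction, the pathway of microbe recognition and defence signalling. It had 0.0289, 0.0535 and 0.0166 FPKM in wild-type and 2.53, 3.84 and 1.25 FPKM in *nwgl*. Each *nwgl* library was above each wild-type library, and the rise (log2 fold change 4.19, standard error 0.53, adjusted p = 0.00290 from limma) was called with every library left out. Locus 38591 was assigned to amino sugar and nucleotide sugar metabolism, the pathway that supplies activated sugars for cell wall polymers and glycosylation. It had 4.05, 7.81 and 4.62 FPKM in wild-type and 1.90, 1.76 and 1.31 FPKM in *nwgl*. Its genotypes did not overlap either, but it was not called (-1.63, standard error 0.40, adjusted p = 0.0535). It passed the threshold under 4 of the other settings, with adjusted p of 0.0485 among rows with a mean of at least 1 FPKM, 0.0255 with median-of-ratios scaling, 0.0182 with quantile normalization and 0.0450 with robust eBayes. Both loci appear in the study's own pathway lists of changed genes, which were drawn from these samples, so the assignment is no independent evidence of their direction.

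A few loci varied more within a genotype than between the genotypes. Locus 36410 had 21.6, 24.96 and 0 FPKM in wild-type and 0.0842, 0.118 and 0.0253 FPKM in *nwgl*. Wild-type replicates 1 and 2 were far above every *nwgl* library and wild-type replicate 3 was below them (log2 fold change -4.47, standard error 1.77, adjusted p = 0.239 from limma), and the locus was called without that replicate (-7.09, adjusted p = 0.000636). Locus 42156 had 0, 8.09 and 8.07 FPKM in wild-type and 0.533, 4.58 and 1.38 FPKM in *nwgl* (-0.20, adjusted p = 0.978). Locus 40621 had 2.72, 0 and 0.0843 FPKM in wild-type and 0, 5.84 and 0.0611 FPKM in *nwgl* (0.29, adjusted p = 0.970). In the latter, 1 library of each genotype carried nearly all of the signal.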

How the data were processed

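All 6 libraries of leaf RNA (3 wild-type, 3 *nwgl*) were used. The authors aligned the reads to the Bolbase genome with HISAT2, assembled them with StringTie 1.3.1 and deposited FPKM values for annotated genes and new loci. The lncRNA table was not used here. The counts behind the study's DESeq test are not in the table analysed, so limma 3.58.1 (R 4.3.3, statmod 1.5.0) was run on log2(FPKM + 0.1) for rows with a mean FPKM of at least 0.1, with eBayes trend, keeping the study's thresholds. The fit was tested on simulated data. Summaries and figures used Python 3.11.15, pandas 2.3.3, numpy 2.4.6 and matplotlib 3.10.9.

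A fold change on this scale understates the change of low loci. FPKM gives no counting error, so precision rests on the spread between biological replicates. An exact permutation test of 3 against 3 cannot go below p = 0.1. Reads shared with near-identical copies may be split between loci in ways the table does not show.

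The members and lists were chosen with earlier results of these data known. Named loci were the 6 largest called rises and 6 largest falls with a mean of at least 1 FPKM, no overlap and a value above 0 in each genotype, the 5 most abundant called loci at 0 in each genotype, the 5 most abundant loci, those with a pathway in the study's supplement, the 2 on each side of number 35000, the 5 largest changes in the bin with the most calls, the longest runs of called loci (4 tied), and the 3 with a mean of at least 1 FPKM that varied most within a genotype. Alternatives were a pseudocount of 1 or 0.01, no filter or a mean of at least 1 FPKM, quantile normalization or median-of-ratios scaling, robust eBayes or none of the trend, a replicate block, no fold threshold, other bin widths and number limits, other definitions of a locus that is off, and each library left out. The stretch from 37000 up to 42000 was chosen after seeing the data.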

Additional observations from a re-analysis of the deposited data

How the results depend on the processing

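The count of 78 called loci was within 1.5 times under every setting that kept all libraries except a mean FPKM of at least 1, which left 40, 26 of them higher in *nwgl*. A pseudocount of 1 lowered the loci called higher to 36, the share of the new loci of lower number to 2.97%, of all rows to 3.19% and of the stretch from 37000 up to 42000 to 11.2%. Without a filter 2.42% of all rows were called, and with quantile normalization 4.44% of the set outside that stretch. Requiring at least 1 FPKM in each library where a locus was on left 10 of the 62 loci found in one genotype only. Bins of 250 and 1000 numbers gave 24 and 8 bins with a call. With a library left out, 43 to 73 loci were called, 30 to 53 higher and 12 to 20 lower, which is 6.55% to 11.1% of the set, against 1.90% to 5.08% of the new loci of lower number and 1.65% to 5.44% of all rows. The stretch then had 9.65% to 15.4% and the rest of the set 1.59% to 4%, and 73 to 85 loci were found in one genotype only. With the replicate number as a block (replicate block), 75 loci were called, 54 higher and 21 lower. Same-numbered libraries did not pair: their deviations correlated at -0.017, 0.11 and 0.16, and not every library correlated best with its own number. Directions turned for 5 uncalled loci: 42156 (0.80 with a pseudocount of 0.01; -2.32 to 0.86 with a library left out), 40621 (-0.042 with quantile normalization; -1.56 to 1.75), 35019 (-0.66 to 0.036), 39001 (-0.84 to 0.17) and 36156 (-1.49 to 0.23), on the log2 scale. With 3 libraries a genotype, a locus that was not called is not shown to be unchanged.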
